A study of Mus musculus with 8 samples.

Results

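Titin, nebulin and 7 genes of the Z-disc (Ttn, Neb, Actn2, Actn3, Myot, Ldb3, Myoz1, Myoz2 and Myoz3) were followed in the quadriceps femoris (QF) muscle of mice labelled as lacking Grpel1 in skeletal muscle. The 9 genes were chosen by name from the 14012 genes of the count table, and each was listed there once. In QF libraries labelled knockout, 7 of the 9 transcripts were lower than in control libraries and 2 were higher, Actn2 by 2.14-fold and Myoz2 by 9.05-fold. The fast-fibre paralogues Actn3 and Myoz3 fell the furthest among them, by 5.01-fold and 6.59-fold.

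RNA of QF was sequenced from 4 mice labelled Grpel1 smk -/- and from 4 control mice labelled Grpel1 flox/flox, with 1 library for each animal. GRPEL1 is the nucleotide exchange factor of mitochondrial HSP70, the motor that pulls proteins into the matrix. All 8 mice carried floxed Grpel1 alleles, and the study used males of a line made from ES cells injected into C57BL/6NCrl blastocysts. In the knockout animals HSA-Cre-ERT2, a Cre recombinase driven by the human skeletal α-actin promoter, was switched on by tamoxifen from 5 weeks of age, so that the deletion is confined by design to muscle fibres, and the other cells of QF keep the gene. In its account of body weight the study calls its Grpel1 flox/flox littermates untreated, and it also kept floxed mice with Cre but no tamoxifen and floxed mice with tamoxifen but no Cre. Which of these the sequenced controls were is not given in the sources used here, so the deletion, the Cre and the drug cannot be told apart. The age at sampling was also not given per animal.

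A sarcomere, the contractile unit of a muscle fibre, is bounded by Z-discs, in which actin filaments of neighbouring sarcomeres are cross-linked by α-actinin. Titin is a giant elastic protein that reaches from the Z-disc to the M-band at the centre of the sarcomere, and nebulin lies along the thin filament from the Z-disc outwards. Myotilin (Myot) and LDB3, also called ZASP or Cypher, bind α-actinin and stabilise the disc. The myozenins, or calsarcins, bind α-actinin, filamin C and the phosphatase calcineurin. In skeletal muscle ACTN3, MYOZ1 and MYOZ3 are typical of fast fibres, MYOZ2 of slow fibres and heart, and ACTN2 is made in both fibre types.

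The 8 libraries held between 16017565 and 20361144 counts, and the lowest count of any member was 101, for Myoz2 in control 1. Levels are given as CPM, counts scaled to libraries of 1000000 with TMM factors (trimmed mean of M-values). The TMM factors were 0.747 to 0.844 in controls and 1.19 to 1.33 in libraries labelled knockout, so this scaling weighs on every fold change below. With library totals alone the median over all genes, as a log2 fold change, moved from 0.07 to 0.73, and the split of genes past the threshold moved from 2962 lower and 3303 higher to 873 lower and 8498 higher. Grpel1 itself was at 68.4 ± 3.04 CPM in controls and 65.3 ± 6.11 CPM in libraries labelled knockout (SD, n = 4; adjusted p = 0.487), and the groups overlapped. A count over the whole gene therefore did not check the genotype, and the groups are called by their labels. For protein, the study reports less GRPEL1 in QF of its knockout mice by immunoblot and immunostaining. Myh6 and Tnni3, 2 markers of cardiac muscle, summed to at most 5.63 CPM in any library, while 6 markers of skeletal muscle summed to 72070 to 86925 CPM in controls and 29555 to 38074 CPM with the knockout label. Of these 6, 5 were lower and Des was higher. QF is a mixed tissue, and fewer cells of a type and less RNA per cell cannot be told apart in it.

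The sequences upstream of the start site are shown for the 4 members held in the RefSeq promoter table (build GRCm38.p6), because among them are the 2 members that were higher and 2 of those that were lower. Each line gives the 250 bases before the start, 5′ to 3′ on the coding strand, which is the minus strand for all 4 genes. Capitals mark matches on either strand to the MEF2 site, the CArG box bound by serum response factor, the E-box CANNTG, the M-CAT site CATTCC and the NFAT core TGGAAA.
Myoz2, chr3:123034988-123035237: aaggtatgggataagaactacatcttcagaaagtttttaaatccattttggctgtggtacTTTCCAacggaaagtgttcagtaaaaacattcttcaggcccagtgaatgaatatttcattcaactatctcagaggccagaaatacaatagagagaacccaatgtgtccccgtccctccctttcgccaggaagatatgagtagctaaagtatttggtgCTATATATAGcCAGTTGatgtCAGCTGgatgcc
Actn2, chr13:12340733-12340982: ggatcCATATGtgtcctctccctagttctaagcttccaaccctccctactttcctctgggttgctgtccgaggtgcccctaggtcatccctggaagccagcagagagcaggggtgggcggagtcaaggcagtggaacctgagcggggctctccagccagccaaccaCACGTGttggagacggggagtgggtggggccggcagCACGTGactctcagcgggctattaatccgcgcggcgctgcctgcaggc
Ttn, chr2:76982548-76982797: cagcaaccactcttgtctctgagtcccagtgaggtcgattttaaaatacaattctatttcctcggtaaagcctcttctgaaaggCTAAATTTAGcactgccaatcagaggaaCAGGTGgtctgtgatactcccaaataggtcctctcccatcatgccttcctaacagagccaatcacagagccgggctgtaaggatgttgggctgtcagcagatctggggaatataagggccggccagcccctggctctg
Ldb3, chr14:34588682-34588931: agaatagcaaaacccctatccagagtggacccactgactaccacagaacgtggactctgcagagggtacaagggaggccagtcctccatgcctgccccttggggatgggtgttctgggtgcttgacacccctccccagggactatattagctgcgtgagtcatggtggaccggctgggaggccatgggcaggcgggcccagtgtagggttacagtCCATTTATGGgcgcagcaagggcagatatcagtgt

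A MEF2 site, the AT-rich element of the myocyte enhancer factors, was found in Myoz2 33 to 24 bases and in Ttn 166 to 157 bases before the start, and in 0.508% of all 32851 promoters of the same length. Myoz2 was higher with the knockout label and Ttn was lower. The 10 bases of the CArG box stood in Ldb3 35 to 26 bases before the start, against 1.47% of all promoters. Another start site is held for Ldb3, not printed here, and the same box lay 109 to 100 bases before it. The E-box was present once in Ttn, in 2 places in Myoz2 and in 3 places in Actn2, of which 2 read CACGTG, and 66.2% of all promoters held at least 1. The NFAT core, here read on the opposite strand as TTTCCA, was present 190 to 185 bases before the start of Myoz2 and in 18.6% of all promoters. The M-CAT site was in none of the 4 windows and in 12.6% of all promoters. None of these motif searches overlapped another in the 4 windows. They describe the letters present and not the binding of a factor.

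Titin and nebulin, the giant proteins of the sarcomere, both fell by about the same factor. Ttn lies on chromosome 2 (GRCm38, 76703984 to 76982547, minus strand) and its exons cover 104320 bases. Its level was 13025, 12038, 14097 and 10426 CPM in controls 1 to 4 and 5735, 5201, 6819 and 5456 CPM in the libraries labelled knockout 1 to 4. The lowest control was thus 1.53 times the highest library labelled knockout. The difference was -1.10 on the log2 scale (SE 0.140; adjusted p = 9.3e-05, edgeR quasi-likelihood test with Benjamini-Hochberg adjustment over all genes), which left 46.8% of the control level. With library totals alone it was -0.43 (adjusted p = 0.0018), a smaller difference that still passed.

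Neb, on chromosome 2 as well (52136647 to 52338798, minus strand), had 22489 bases of exons. It was at 6113, 5742, 6463 and 5675 CPM in controls and at 2913, 2689, 3566 and 2814 CPM with the knockout label. The groups did not overlap here either, and the log2 difference was -1.0 (SE 0.118; adjusted p = 5.4e-05), or -0.34 with library totals alone (adjusted p = 0.0032). Per kilobase of exon, the ratio of Neb to Ttn within a library was 2.18, 2.21, 2.13 and 2.52 in controls and 2.36, 2.40, 2.43 and 2.39 with the knockout label. This ratio differed by 0.09 on the log2 scale (exact two-sided permutation test, p = 0.143), and control 4 lay above all other libraries. Antisense genes share exon bases with both, 453 bases with Ttn and 45 with Neb, and whether reads were counted by strand is not given in the sources used here.

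The median log2 fold change was 0.20 in the 988 genes with under 1000 bases of exons and -0.38 in the 28 genes with 16000 bases or more, of which Ttn and Neb are 2. After removal of a smooth trend on exon width the differences were -0.72 for Ttn and -0.83 for Neb. The part of length in these differences was not tested. Counts per gene do not separate the 25 annotated transcripts of Ttn or the 13 of Neb (GENCODE vM21).

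The α-actinins of the Z-disc moved in opposite directions. Actn3 (chromosome 19, 4861216 to 4877909, minus strand) encodes the fast-fibre form and ranked 11th of all genes by CPM in controls. It was at 15260, 14694, 16659 and 13570 CPM in controls and at 3099, 2694, 3705 and 2512 CPM with the knockout label. The log2 difference was -2.33 (SE 0.153; adjusted p = 1.3e-06), and the lowest control was 3.66 times the highest library labelled knockout. Actn2 (chromosome 13, 12269426 to 12340732, minus strand) was at 634, 1002, 616 and 845 CPM in controls and at 1521, 1689, 1789 and 1632 CPM with the knockout label. This was a log2 difference of 1.10 (SE 0.156; adjusted p = 0.00019), again without overlap between the groups.

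Within a library, the ratio of Actn3 to Actn2 per kilobase was 24.9, 15.2, 27.9 and 16.6 in controls. It was 2.11, 1.65, 2.14 and 1.59 with the knockout label. Its mean on the log2 scale was 4.35 ± 0.432 in controls and 0.89 ± 0.227 with the knockout label (SD, n = 4), an 11.0-fold lower ratio (exact two-sided permutation test, p = 0.029, the smallest that 70 assignments allow; 0.0381 adjusted over 4 ratios). Actn2 made up 4.8% ± 1.34 of both sarcomeric α-actinins in controls and 35.1% ± 3.57 with the knockout label. The summed level of both was 5471 ± 407 CPM per kilobase in controls and 1595 ± 203 with the knockout label. The non-muscle forms Actn1 and Actn4 were at 16.7 and 69.5 CPM in controls and at 16.8 and 63.7 CPM with the knockout label, and neither passed the threshold (adjusted p = 0.981 and 0.486).

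Myotilin and LDB3, which bind α-actinin, were both lower. Myot, on chromosome 18, was at 1295, 1398, 1240 and 1210 CPM in controls and at 559, 702, 753 and 524 CPM with the knockout label. Its log2 difference was -1.02 (SE 0.125; adjusted p = 7.3e-05). With library totals alone it was -0.35 (adjusted p = 0.0217), and Myot was the only member that lost its call under any of the 4 other scalings tried. Ldb3 (chromosome 14, 34526699 to 34588681, minus strand) was at 2563, 2347, 2371 and 2062 CPM in controls and at 793, 931, 932 and 745 CPM with the knockout label. Its log2 difference was -1.46 (SE 0.111; adjusted p = 3.2e-06), and the groups of both genes were apart.

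The 3 myozenins, the calcineurin-binding proteins of the Z-disc, also moved in both directions. Myoz1 (chromosome 14, 20649102 to 20656540, minus strand) was at 2886, 2540, 2964 and 2255 CPM in controls and at 840, 703, 953 and 688 CPM with the knockout label, a log2 difference of -1.74 (SE 0.138; adjusted p = 4.0e-06). Myoz3, on chromosome 18, was at 358, 359, 381 and 275 CPM in controls and at 55.2, 42.8, 62.3 and 48.0 CPM with the knockout label. Its log2 difference of -2.72 (SE 0.142; adjusted p = 3.8e-07) was the lowest of the 9 members, and only 0.842% of all genes tested had a lower or equal value. By CPM it went from rank 349 of all genes to rank 2598.

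Myoz2 (chromosome 3, 123006206 to 123034987, minus strand) was at 8.16, 34.3, 15.6 and 31.6 CPM in controls and at 159, 155, 222 and 281 CPM with the knockout label. The lowest library labelled knockout was 4.51 times the highest control, although the controls themselves spread over 4.20-fold. The log2 difference was 3.18 (SE 0.405; adjusted p = 9.1e-05), and the gene went from rank 5293 to rank 536. The ratio of Myoz1 to Myoz2 per kilobase was 315, 66.0, 169 and 63.6 in controls and 4.72, 4.05, 3.82 and 2.18 with the knockout label. This ratio was 34.4-fold lower, with log2 means of 6.93 ± 1.1 and 1.83 ± 0.486 (SD, n = 4; exact two-sided permutation test, p = 0.029 and 0.0381 adjusted over 4 ratios).

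Myoz1 and Myoz3 also changed against each other, although both are fast-fibre forms and both fell. Their ratio per kilobase was 21.2, 18.6, 20.4 and 21.5 in controls and 40.0, 43.1, 40.1 and 37.6 with the knockout label, a log2 difference of 0.98 with little spread in either group (SD 0.0961 and 0.0803; exact two-sided permutation test, p = 0.029 and 0.0381 adjusted). Of the 3 myozenins together, per kilobase, Myoz2 made up 0.940% ± 0.597 in controls and 21.9% ± 6.09 with the knockout label. The share of Myoz3 went from 4.64% ± 0.291 to 1.89% ± 0.105. The summed level was 2177 ± 256 CPM per kilobase in controls and 807 ± 106 with the knockout label.

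**Figure D1:**
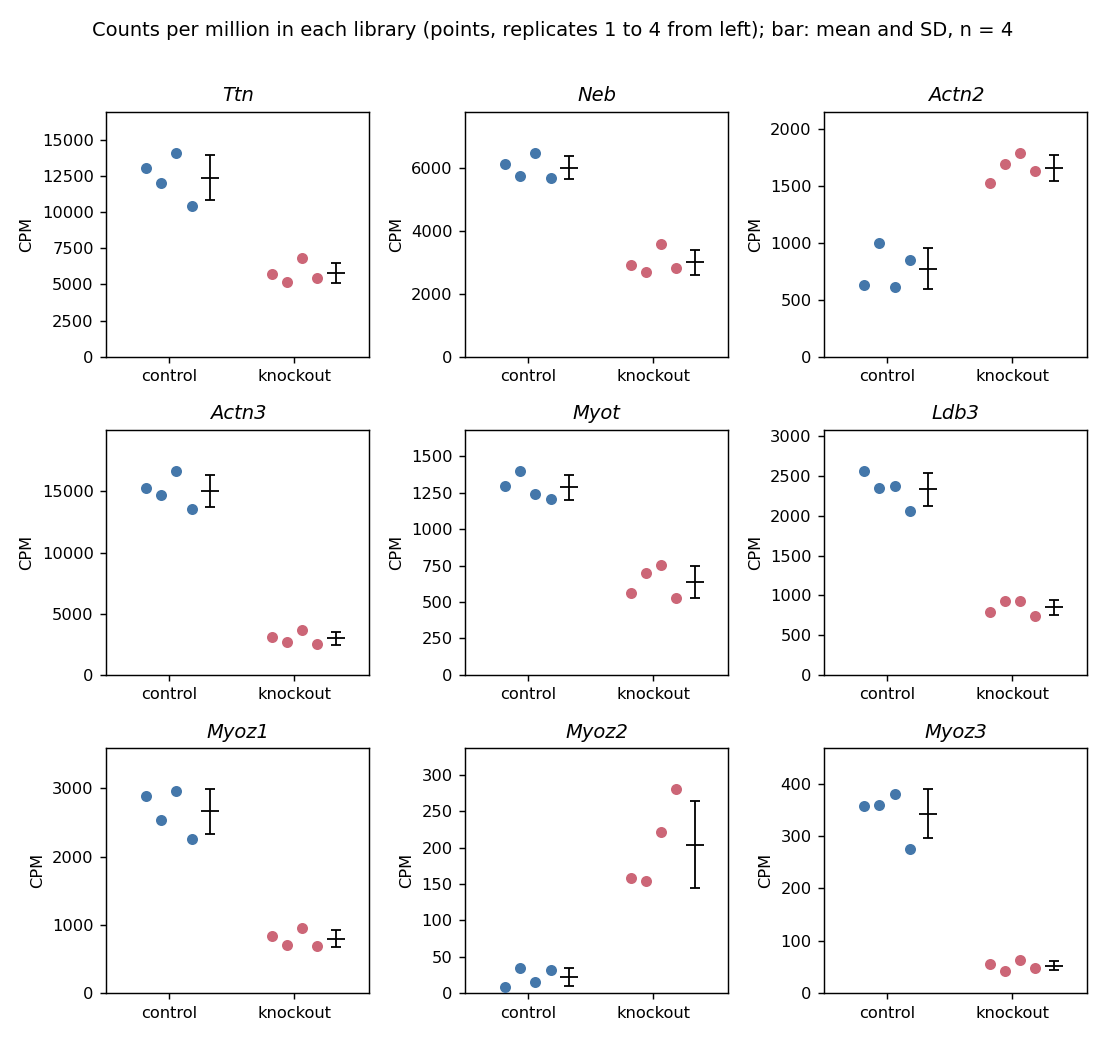
CPM of each of the 9 genes (vertical axes from 0, TMM-scaled) in the 4 control (blue) and 4 knockout-labelled (red) libraries, 1 point for each library, with the mean and SD of each group as a bar. Blue and red points do not overlap in any panel, and red lies above blue only for Actn2 and Myoz2.

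**Figure D2:**
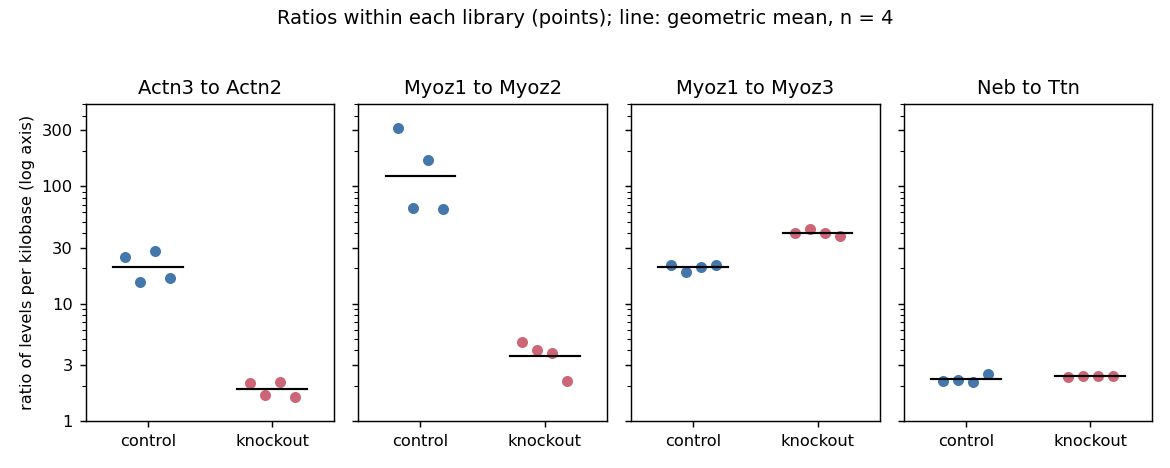
Ratio of the levels per kilobase of exon of a pair of genes within each library (log axis), with 1 point for each control (blue) and knockout-labelled (red) library and a line at the geometric mean. Actn3 to Actn2 went from 15.2 to 27.9 in controls down to 1.59 to 2.14, Myoz1 to Myoz2 from at least 63.6 down to at most 4.72, Myoz1 to Myoz3 rose to between 37.6 and 43.1, and Neb to Ttn overlapped.

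All 9 members had groups that did not overlap, and all 9 passed an adjusted p of 0.01, 7 lower and 2 higher. The background was large. Of all genes tested 21.1% were lower and 23.6% were higher at this threshold, and in 24.4% the groups did not overlap with the knockout label lower and in 29% with it higher. The median log2 fold change was -1.10 over the members and 0.07 over all genes. Together the 9 genes took 3.23% ± 0.119 of all counts in controls and 2.01% ± 0.153 with the knockout label (SD, n = 4; exact two-sided permutation test, p = 0.029). The share of counts from the mitochondrial genome went over the same libraries from between 7.90% and 8.70% to between 3.51% and 4.33%.

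Per kilobase of exon, the order of the levels in controls was Actn3 at 5212 CPM per kilobase, Myoz1 at 2057, Myot at 583, Ldb3 at 388, Neb at 267, Actn2 at 259, Ttn at 119, Myoz3 at 101 and Myoz2 at 19.4. Neighbours in this order were apart in all 4 controls except Neb with Actn2 and Ttn with Myoz3, whose ranges overlapped. With the knockout label Actn3 (1040 CPM per kilobase) and Myoz1 (615) still led. Actn2 (555) came to overlap with Myoz1, and Myoz2 (177) to overlap with Myot (287) and Ldb3 (141). Neb followed at 133 and overlapped with Ldb3, and Ttn at 55.6 and Myoz3 at 15.3 closed the order without overlap. The range between the highest and the lowest mean was thus set by Myoz2 at the low end in controls and by Myoz3 with the knockout label.

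**Figure D3:**
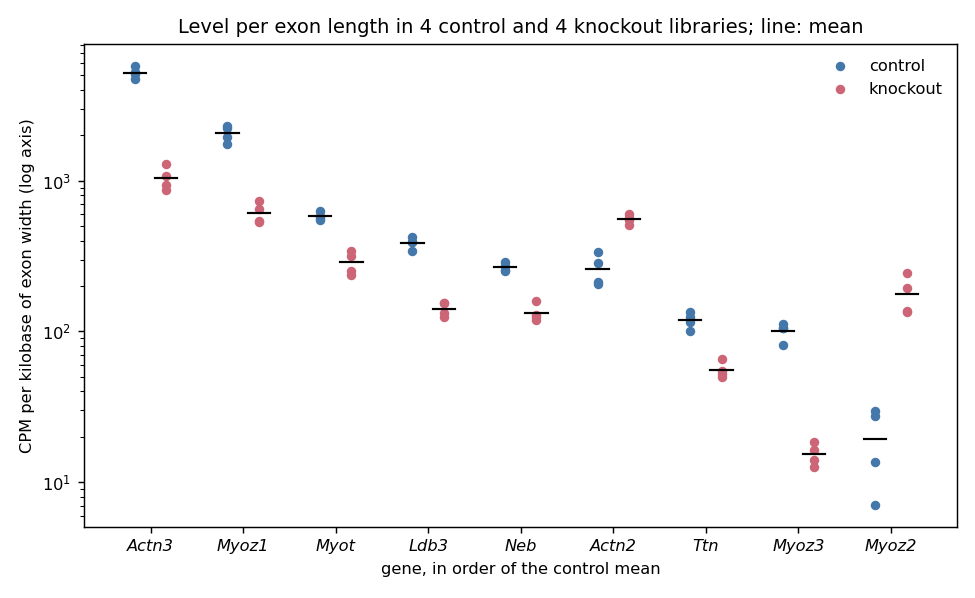
CPM per kilobase of exon width (log axis) of the 9 genes, ordered by the control mean, with 1 point for each control (blue) and knockout-labelled (red) library and a line at each mean. Myoz2 moves from the lowest place, 19.4 CPM per kilobase, to 177, and Myoz3 from 101 to 15.3.

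Libraries of the same group varied together in most members. After the group means were subtracted, all 21 pairs among the 7 lower members correlated positively over the 8 libraries, from r = 0.27 for Myot with Myoz3 to r = 0.95 for Actn3 with Myoz1. Control 4 was the lowest and control 3 the highest control for Ttn, Neb, Actn3, Myoz1 and Myoz3, and knockout-labelled library 3 was the highest of its group in all 7. Actn2 and Myoz2 followed each other (r = 0.80) and were higher in controls 2 and 4 than in controls 1 and 3. Of the 14 pairs of Actn2 or Myoz2 with the other 7, 13 correlated negatively, with values between -0.58 and 0.38. These values are descriptive, and the points share library size and scaling factor.

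The genes whose log2 CPM ran closest to each member over the 8 libraries are given as a description, since these correlations include the difference between groups. For Myoz1 they were Myh4 and Tnni2 (r = 0.999 for both), the fast myosin heavy chain and the fast troponin I. For Neb they were Mybpc2, the fast myosin-binding protein C, and Tnnt3, the fast troponin T (r = 0.998 and 0.997). For Myoz3 they were Slc25a4, the muscle ADP/ATP carrier, and Ak1, adenylate kinase (r = 0.999 and 0.998). Phkg1, the catalytic subunit of muscle phosphorylase kinase, and Prr33 followed Actn3 (r = 0.999 for both). Krba1 and Dupd1 followed Ttn and Pptc7 and Ppm1l followed Ldb3 (r = 0.998 for all 4), while Ipo13 and Tti1 were closest to Myot (r = 0.990 for both). Among the members that were higher, Actn2 ran with Sbf2 and with the M-band gene Myom3 (r = 0.985 and 0.984), and Myoz2 with Madd and Tnfrsf12a, the receptor of TWEAK (r = 0.994 for both).

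Of 81 further genes of the Z-disc, the filaments and the pathways tied to the members, 38 were lower, 17 were higher and 26 did not pass, with a median log2 fold change of -0.38. Over all genes tested, the shares were 21.1% lower and 23.6% higher, for these and for the lists below. With library totals alone, 28 of the 81 were lower and 37 were higher. All 14012 genes then counted 873 lower and 8498 higher, with a median of 0.73. Among 17 other Z-disc genes 4 were higher, near the share over all genes, and 6 were lower, and their median was 0.23. Under library totals alone 11 were higher and 4 lower, with a median of 0.90, or 0.17 relative to that of all genes. Csrp3, which encodes muscle LIM protein, rose from 27.9 ± 18.2 to 131 ± 24.4 CPM (log2 fold change 2.22, adjusted p = 0.0016). The PDZ-LIM gene Pdlim1 rose from 22.2 ± 6.39 to 103 ± 20.9 CPM (adjusted p = 1.4e-05). Flnc, the filamin that binds myotilin and the myozenins, rose from 1066 ± 177 to 3140 ± 463 CPM (1.56, adjusted p = 1.5e-05). Des, the intermediate filament that ties Z-discs together, was the other gene that was higher (0.82).

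The Z-disc genes that were lower included Pdlim5, Synpo2 and Pdlim7, at log2 fold changes of -1.28, -1.28 and -1.25 (adjusted p = 3.3e-05, 4.6e-06 and 4.5e-06). Tcap, whose product telethonin caps titin at the Z-disc, was at 1712 ± 313 CPM in controls and 798 ± 216 CPM with the knockout label (-1.10). The remaining ones were Capza2 and Capzb, subunits of the actin cap at the Z-disc (-0.91 and -0.79). Of 6 paralogues of members outside the 9 genes, only Mypn passed, at -0.42 (adjusted p = 0.0060), and under library totals alone its sign turned to 0.25. The nebulin relative Nrap was at 1693 ± 473 and 2070 ± 425 CPM and did not pass (adjusted p = 0.250). Nebl was not analysed here.

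In the list of 14 M-band and titin-binding proteins 9 genes were lower and 2 were higher, with a median of -0.81. Under library totals alone 7 were lower and 4 were higher, with a median of -0.15. Capn3, a protease anchored on titin, fell by 1.64 on the log2 scale (adjusted p = 3.0e-07). The kinase gene Speg and the titin-binding ligase Trim55 fell by 1.21 and 1.14. Myom3, a myomesin of the M-band, rose from 23.2 ± 14.2 to 196 ± 26.6 CPM (3.07, adjusted p = 4.8e-05), and Fhl2, at 0.81 and 2.6 CPM, rose by 1.67. In a list of 8 genes that set thin filament length or act with nebulin, 3 were lower and 2 were higher, with a median of 0.04. Under library totals alone 3 were lower and 5 were higher, with a median of 0.71, or -0.02 relative to that of all genes. Lmod2, an actin nucleator at the pointed end, rose from 99.3 ± 54.7 to 428 ± 94.9 CPM (2.11, adjusted p = 0.00084), and the cofilin Cfl2 rose by 0.76. The pointed-end caps Tmod1 and Tmod4 fell by 1.63 and 1.11, and the Kelch gene Kbtbd13 fell by 1.72.

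Among calcineurin and NFAT genes, the partners of the myozenins, 8 of 9 were lower, with a median of -0.74. The calcineurin regulators Rcan2 and Rcan1 and the catalytic subunit Ppp3cb were lowest, at -1.57, -1.56 and -1.41 (adjusted p = 5.9e-07, 0.00038 and 6.7e-07). The ninth, Nfatc2, did not pass, at a log2 fold change of 0.78 (adjusted p = 0.0148). Under library totals alone the count of the list became 4 lower and 2 higher, with a median of -0.07. Of 8 splicing regulators of sarcomere transcripts 3 were lower, 1 was higher and 4 did not pass, beside 21.1% lower and 23.6% higher over all genes. Under library totals alone 2 were lower and 4 were higher, with a median of 0.45, or -0.28 relative to that of all genes. Mbnl1 and Rbfox1 were at -1.18 and -1.17, Mbnl2 at -0.48 with a sign that turned to 0.19 under library totals alone, and Rbfox2 was higher at 0.94 (adjusted p = 1.7e-06).

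**Figure D4:**
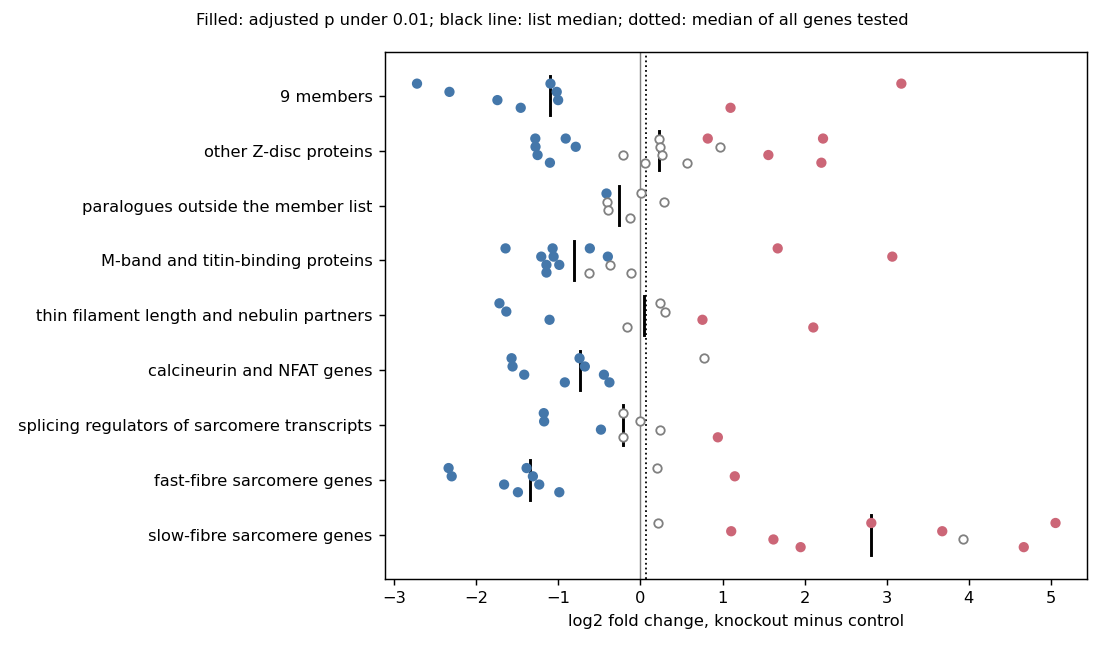
Log2 fold change (knockout-labelled minus control) of the 9 members and of the 81 partner genes in 8 lists, 1 point for each gene, filled where the adjusted p was under 0.01 (red higher, blue lower) and open otherwise. Black lines mark list medians, from -1.35 for fast-fibre to 2.81 for slow-fibre sarcomere genes, and the dotted line marks the median of all genes, 0.07.

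Genes of fast and slow fibres differed between the same libraries. Of 10 fast-fibre sarcomere genes 8 were lower and 1 was higher, with a median of -1.35. The lowest were Myh4, the myosin heavy chain of type IIB fibres, Pvalb and Myl1 (-2.34, -2.30 and -1.66), and Myh1, that of type IIX fibres, was higher at 1.15 (adjusted p = 0.0017). Myh2 did not pass (0.21, adjusted p = 0.70), and its controls spread from 252 to 1617 CPM. Of 9 slow-fibre genes 7 were higher, with a median of 2.81, and Myh7 and Myl3 did not pass (3.93 and 0.21, adjusted p = 0.012 and 0.83). The groups overlapped for Myl2 and Tpm3, although both passed. In library 2 labelled knockout, Myh7 and Myl2 were within the control range, at 6.18 and 6.37 CPM, and Myl3 was below it, at 3.16. Myh7 was at 173, 280 and 528 CPM in libraries labelled knockout 1, 3 and 4. The troponins Tnni1, Tnnc1 and Tnnt1 rose by 5.06, 4.67 and 3.68 on the log2 scale, although each was at most 6.29 CPM in the control mean.

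The summed CPM of the 9 slow-fibre genes was 137, 147, 237 and 210 in controls and 703, 440, 1008 and 1715 in libraries labelled knockout 1 to 4. In the latter, Myoz2 had the same order as this sum, with library 2 lowest and library 4 highest. Libraries 1 and 2 were nearly equal in Myoz2, at 159 and 155 CPM, while their sums were 703 and 440. In controls Myoz2 did not have the order of the sum, since control 2 had the highest Myoz2 beside the second-lowest sum. The controls had the same order in Myh2 as in Myoz2, and the libraries labelled knockout did not. Actn2 was highest in libraries labelled knockout 3 and 2 and did not follow the sum. The summed level of 6 satellite cell and regenerating fibre markers went from between 32.9 and 39.9 CPM to between 762 and 1610 CPM. Within it 4 genes were higher, among them Myh3 and Myh8, the embryonic and perinatal myosin heavy chains (6.92 and 6.72 on the log2 scale), and Pax7, the defining marker of satellite cells, did not pass (0.28). The part of fibre type and of regenerating fibres in the values of Myoz2 and Actn2 was not tested.

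**Figure D5:**
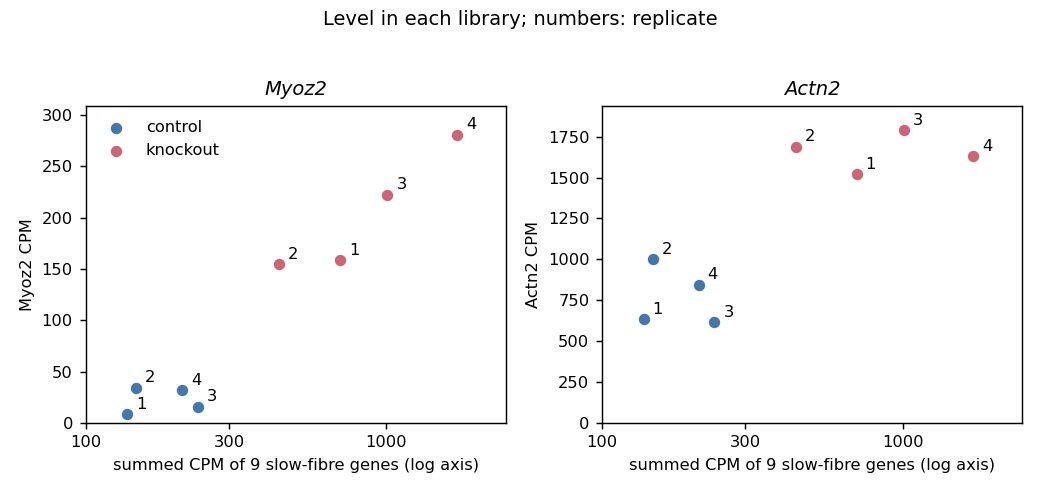
CPM of Myoz2 (left) and Actn2 (right), vertical axes from 0, against the summed CPM of 9 slow-fibre sarcomere genes (log axis) in each control (blue) and knockout-labelled (red) library, with the replicate number beside each point. The sum was 137 to 237 in controls and 440 to 1715 in the knockout-labelled libraries.

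Markers of cells other than fibres are given beside the shares over all genes, 21.1% lower and 23.6% higher. All 5 endothelial markers were lower, with sums of 288 to 410 CPM in controls and 200 to 229 CPM with the knockout label. Of 5 fibroblast markers 4 were lower, and their sums went from between 1641 and 2490 to between 627 and 977 CPM. The collagens Col3a1, Col1a2 and Col1a1 were the largest parts, with control means of 682, 569 and 438 CPM. Pdgfra did not pass, at 25.8 CPM in controls and 23.3 CPM with the knockout label (adjusted p = 0.390). By Sirius Red staining, the study reports fibrosis in QF of its knockout mice. Of 4 smooth muscle markers 3 were lower, although their sums overlapped, from 144 to 247 and from 135 to 189 CPM. Only Cd68 of 6 macrophage markers was higher, with sums of 54.1 to 133 and 108 to 192 CPM. The 5 adipocyte markers did not pass, with 0.080 for Lep as the lowest adjusted p, and their sums spread from 29.3 to 852 CPM in controls and from 346 to 1482 CPM with the knockout label. None of these markers was at 0 in any library. The part of cell composition in the changes of the 9 genes was not tested.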

How the data were processed

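QF RNA of 8 mice was sequenced, 1 library for each mouse. The authors captured polyadenylated RNA, made NEBNext Ultra II Directional libraries and, per the labels, used bcl2fastq 2.20.0.422, cutadapt and STAR 2.5.4b on GRCm38. For the deposited raw counts the authors assigned read pairs to exons of each gene with Rsubread, after dropping duplicates, chimeras and pairs of low or multiple mapping, and low genes were removed (lowest total 51). The annotation release and the use of strand are not given in the sources used here. The deposited FPKM, which the authors derived from these counts and the exon width, served only as an alternative. The authors' DESeq2 1.32.0 columns (mean signal, log2 fold change, standard error, p-value and adjusted p-value) were not used.

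All 14012 genes were tested in R 4.3.3 with the edgeR 4.0.16 quasi-likelihood test on TMM-scaled counts, with no other term than the label and an adjusted p under 0.01. CPM are over TMM-scaled library sizes, and 3 counts equal 0.119 to 0.242 CPM. Single values were compared by exact permutation. Libraries of a group differed by more than counting noise (from 17.2 to 42.7 times, as chi-square over its degrees of freedom), and none was a repeat. Promoters came from the RefSeq table, which held 4 of the 9 members. Named are the members, up to 3 highest and 3 lowest genes past the threshold in each list, the 2 genes of mean CPM of at least 10 closest to each member by Pearson's r of log2 CPM (prior count 2), and Grpel1. Des, Tcap, Capza2, Capzb, Actn1, Actn4, Nrap, Nfatc2, Myh2, Myh7, Myl2, Myl3, Tpm3, the cell markers and the motifs were named outside this rule, after values were seen. The members and lists were chosen with earlier results of these data known. Alternatives covered the scaling, the filter on low counts (filterByExpr), the test (DESeq2 1.42.0), the threshold, a block on replicate number, the removal of each library in turn, the trend on exon width and the deposited FPKM. The fit was tested on simulated data with few changed genes, balanced between higher and lower. That simulation did not cover a scaling difference such as the one between these groups.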

Additional observations from a re-analysis of the deposited data

How the results depend on the processing

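The members counted 7 lower and 2 higher under RLE, upper-quartile and TMM factors without the 50 most abundant genes, filterByExpr, DESeq2, an adjusted p of 0.05 and without any 1 library. Library totals alone gave 6 lower and 2 higher, without Myot. They gave 37 partner genes higher in place of 17 and 28 lower in place of 38. All genes tested moved the same way, to 8498 higher and 873 lower. The totals brought Ttn to -0.43, Neb to -0.34 and Myoz2 to 3.82. Relative to the shifted median of all genes, they gave -1.16 for Ttn, -1.07 for Neb, -1.09 for Myot and 3.09 for Myoz2. Of the partner genes past the threshold, 6 changed sign under totals, among them Mypn and Mbnl2 of those named. Without mitochondrial-genome genes in the total, the members' share differed by -1.43 percentage points in place of -1.22. The deposited FPKM kept each level per kilobase within 1 SD. They come from the same counts and exon widths, so this check could show only a difference in scaling, and the ratios could not change. Removal of the trend on exon width brought Ttn to -0.72, with no test. The replicate numbers name different animals. Same-numbered libraries correlated at 0.12, 0.003, 0.42 and 0.14 in their deviations from the group means, and 6 of 8 libraries were closest to their own number, which is a hint of shared structure from the data and not from the design. Since 1 of the 4 pairs was under 0.1, the numbers were not taken to pair the samples. A replicate block gave 7 members lower and 2 higher, 39 partner genes lower and 20 higher. With 1 library left out, the exact test of a ratio was not run, and ratios were compared by value only. With 4 libraries in each group, the exact test cannot go below 0.029. Depth limited no member, since the lowest count was 101.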
